A study of Mus musculus with 20 samples.

Results

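Hsd17b2, Hsd3b5 and Hsd11b1 encode hydroxysteroid dehydrogenases of mouse liver, and all 3 of these chosen genes were named in the platform annotation of the arrays. They were read by 4 probes, 2 of them for Hsd3b5, out of 23574 probes that gave 21643 features after probes of the same gene were averaged. The livers came from 20 C57BL/6J mice of the FCG cross, in which the Y chromosome has lost the testis gene Sry (written Y-) and an Sry transgene sits on an autosome. Each liver was set against a common liver pool on a 2-colour array, so that every value is the log2 ratio of one liver over the pool and says nothing of a gene's absolute level. The groups were gonadal males with XX chromosomes and the transgene (XX.Sry, here XXM), gonadal males with XY- and the transgene (XY-Sry, here XYM), gonadal females with XX (XXF) and gonadal females with XY- (XYF), with 5 animals in each. Mice of all groups were kept on a chow of 4% fat and gonadectomized at 8 weeks of age. Livers were taken at 12 weeks, when the mice had fasted for 12 h. No animal kept its gonads, and no gonadal male lacked the transgene, so the gonads an animal once had and the transgene cannot be told apart. Livers are named by group and animal number.

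Hydroxysteroid dehydrogenases move hydrogen between the hydroxyl and keto groups of steroids and so set how much of a hormone is in its active form inside a cell. Hsd17b2 oxidizes estradiol and testosterone to the weaker estrone and androstenedione. Hsd3b5 belongs to the branch of the Hsd3b family that, in mice, acts as a reductase of androgens such as dihydrotestosterone, and it is known as a gene expressed mainly in the liver of adult males. Hsd11b1 runs mostly as a reductase in liver, where it remakes active corticosterone from its inert keto form with NADPH formed inside the endoplasmic reticulum.

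Hsd17b2 lies on chromosome 8, Hsd11b1 on chromosome 1 and Hsd3b5 on chromosome 3, in a row of related genes with the order Hsd3b4, Gm10681, Hsd3b5, Hsd3b2, Hsd3b3, Hsd3b6 and Hsd3b1 (RefSeq, assembly GRCm38.p6). Hsd3b5 and its neighbour Hsd3b2 are given here by the 250 bases before their starts, because the 2 genes lie side by side and gave different results between gonadal types. The windows are chr3:98645535-98645784 for Hsd3b5 and chr3:98724544-98724793 for Hsd3b2, both on the minus strand and read 5′ to 3′, with capitals for a match to TGTTCT on either strand.
Hsd3b5: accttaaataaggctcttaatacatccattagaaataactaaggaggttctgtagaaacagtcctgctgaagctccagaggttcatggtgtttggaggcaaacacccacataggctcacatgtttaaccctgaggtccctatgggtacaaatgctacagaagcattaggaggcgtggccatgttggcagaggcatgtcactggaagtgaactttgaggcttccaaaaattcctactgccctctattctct
Hsd3b2: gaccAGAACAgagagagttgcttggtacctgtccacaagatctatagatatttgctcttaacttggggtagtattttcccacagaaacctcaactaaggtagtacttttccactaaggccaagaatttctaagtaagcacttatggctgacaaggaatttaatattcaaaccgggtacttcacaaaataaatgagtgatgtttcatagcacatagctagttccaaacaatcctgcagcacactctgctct
The letters TGTTCT form the core of sites bound by the glucocorticoid and androgen receptors. Hsd3b2 held 1 match, 246 to 241 bases before the start, and the window of Hsd3b5 held 0. The STAT5 motif TTCNNNGAA and the nuclear receptor motif AGGTCA matched neither window on either strand. The 3 motifs also had 0 matches in the window listed for Hsd11b1, chr1:193242361-193242610. That window lies within the span of the gene (193221640-193264045) and so not before its outermost start. Of 32851 RefSeq windows of this length, 16.1% held TGTTCT, 7.02% held TTCNNNGAA and 14% held AGGTCA. The 2 windows were identical at 63.3% of aligned bases, against 57.5% for Hsd3b5 and 57.8% for Hsd3b2 with the unrelated window of Hsd11b1. A match of letters is a description and shows no bound factor.

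The 20 arrays gave values for nearly all probes, with 2 missing values in all. The median log10 ratio per array ranged from -0.0107 to 0.0155. The SD over probes (log2) was 0.175 to 0.341, and the widest 4 arrays were XXF 2, XXF 6, XYF 3 and XYF 12. Arrays correlated with each other at between -0.543 and 0.684 over all probes, with 9 of 190 pairs below -0.3. Because the livers were all in Cy5, no array's sign was turned. The Y-linked gene Eif2s3y stood at -3.90 in the library labelled XYF 30, within the range of XX livers (-5.28 to -2.46) and outside that of the other 9 XY livers (0.57 to 1.34). Kdm5d, also Y-linked, stood at -3.16 in that library, below every XX liver (-3.03 to -1.22). In the other 9 XY livers Kdm5d was at 0.14 to 1.37. The library stayed in its labelled group and is part of the XYF and XY values unless stated.

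Hsd17b2 was lower in livers of gonadal males than in those of gonadal females. It stood at -0.18, -0.26, -0.18, -0.0027 and -0.01 in XXM 9, 18, 31, 32 and 38. In XYM 5, 14, 19, 20 and 27 the log2 ratios were -0.30, -0.32, -0.41, -0.12 and -0.17. Among gonadal females it was at 0.56, 0.16, 0.16, 0.14 and 0.24 in XXF 2, 6, 21, 29 and 35. All 10 gonadal males thus lay below the pool and all 5 XXF livers above it. In XYF 3, 12, 22, 24 and 30 the values were 0.22, -0.09, 0.23, -0.16 and 0.60, the widest spread of the 4 groups. Of the 10 gonadal females, 8 lay above every gonadal male, while XYF 12 and XYF 24 lay within the males' range. The share of all features with so little overlap was not counted. The library labelled XYF 30 held the highest value of all 20.

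**Figure D1:**
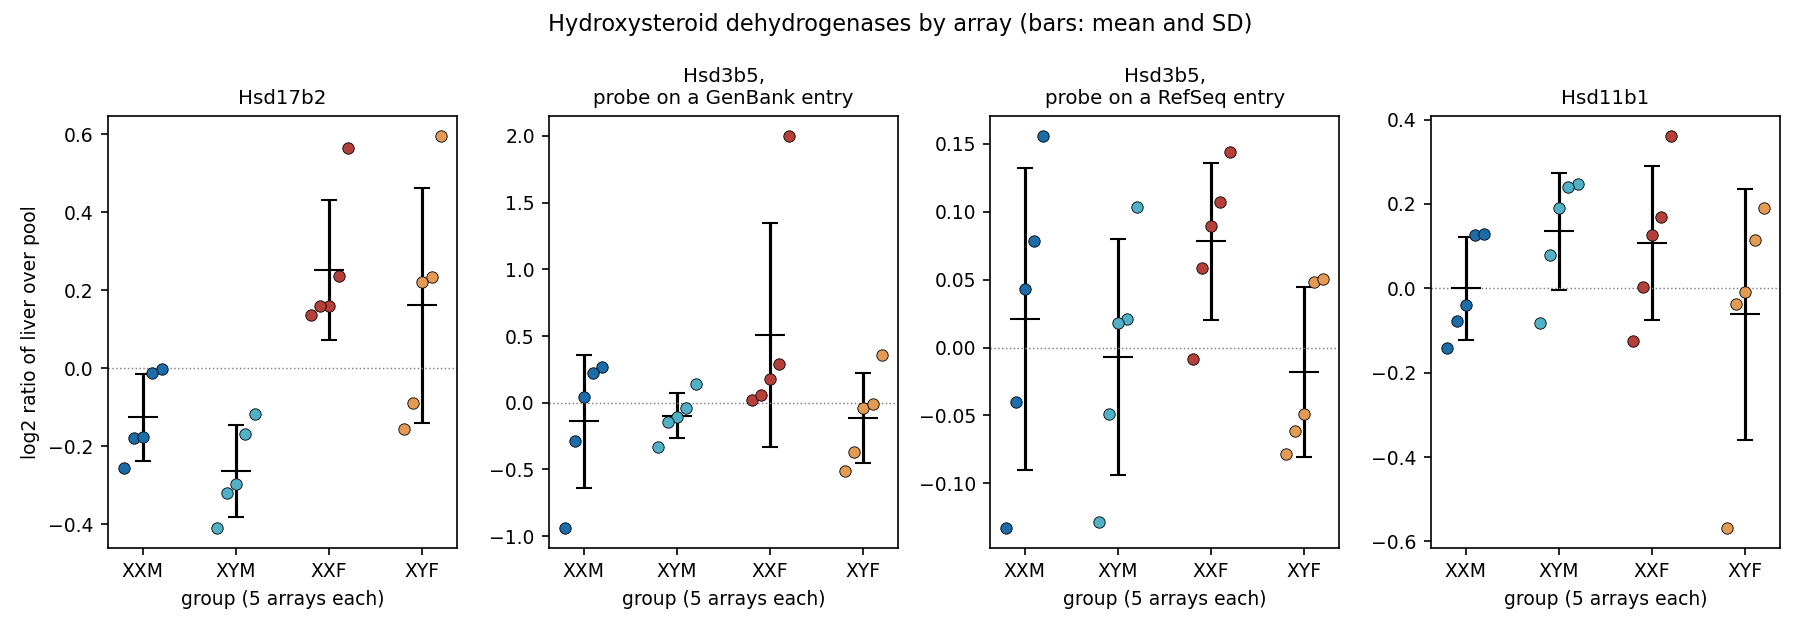
Log2 ratio of liver over pool for Hsd17b2, the 2 probes of Hsd3b5 and Hsd11b1, with 1 point per array, groups of 5 arrays along the x axis, and lines for the mean and SD; each panel has its own y scale. All gonadal males of Hsd17b2 lie below 0, and XXF 2 stands at 2.00 on the Hsd3b5 probe for a GenBank entry, away from the other 19 arrays.

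Group means of Hsd17b2 were -0.13 ± 0.11 in XXM, -0.26 ± 0.12 in XYM, 0.25 ± 0.18 in XXF and 0.16 ± 0.30 in XYF (SD, n = 5 each). The difference between gonadal males and gonadal females was -0.40 ± 0.08 (limma, log2 scale, SE), a level 1.32-fold lower in gonadal males with a 95% interval from -0.57 to -0.23. It passed the threshold of 0.05 on limma's p adjusted by Benjamini-Hochberg over all features (adjusted p = 0.0119). At that threshold 3.74% of all features were called, and 2.28% were called lower in gonadal males. Ranked by size, 95.8% of features had a smaller difference than Hsd17b2. An exact two-sided permutation test of the gonadal type within each sex chromosome complement gave p = 6.3e-05 (not adjusted). The smallest value possible in this test was 3.15e-05. The call held in each of the 20 fits that left out an animal, with differences from -0.44 to -0.35 and adjusted p from 0.00526 to 0.0291 by limma. The smallest of these was -0.35, without the library labelled XYF 30.

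The gonadal difference had a like size in both sex chromosome complements. It was -0.38 between XXM and XXF and -0.42 between XYM and XYF. The second was -0.32 without the library labelled XYF 30 (limma adjusted p = 0.244). Neither pair passed limma's adjusted test (adjusted p = 0.166 and 0.246, with 0.665% and 0.157% of features called), whereas exact two-sided permutation tests gave p = 0.00794, the smallest that 5 against 5 allows, and p = 0.0159. The interaction of gonadal type and sex chromosomes was 0.05 ± 0.17 for Hsd17b2 (95% interval -0.30 to 0.39), and -0.06 without that library. Limma called 0 features for that interaction (0% of features), with 563 at an unadjusted p under 0.05.

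Sex chromosomes went with no called difference in Hsd17b2. XX livers exceeded XY livers by 0.11 ± 0.08 (95% interval -0.06 to 0.29, limma adjusted p = 0.924), a comparison in which 0.0277% of features were called. The difference was 0.17 without the library labelled XYF 30 and 0.07 without XYF 24 or XXF 2. From high to low, the group means ran XXF, XYF, XXM and XYM. Neighbours in that order did not differ past the threshold: XXF minus XYF was 0.09 (adjusted p = 0.876), XXM minus XYF was -0.29 (adjusted p = 0.312) and XXM minus XYM was 0.14 (adjusted p = 1), all by limma. Without the library labelled XYF 30, XXF minus XYF was 0.20 and XXM minus XYF was -0.18 (limma adjusted p = 0.741 and 0.408). XXF minus XYF was also 0.01 without XXF 2 or XYF 24 and 0.03 without XYF 12. The ends of the order, XYM minus XXF, differed by -0.51 (limma adjusted p = 0.0526). It was called in 3 of the 20 fits that left out an animal, which gave the same -0.51 without XYF 30, XYF 12 or XYF 24 (limma adjusted p = 0.0156, 0.0243 and 0.0432), livers of a group that enters this pair only through the shared spread. Features called in these 4 comparisons made up 0% for XXF minus XYF (0 features, with 1317 at an unadjusted p under 0.05), 0.305% for XXM minus XYF, 0.00462% for XXM minus XYM and 0.615% for XYM minus XXF.

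Markers of other cells differed between gonadal types beside Hsd17b2. Over all features 3.74% were called, and 2.28% were called lower in gonadal males. An unadjusted p under 0.05 (limma) was held by 3842 of the 21643 features. Of 15 macrophage markers 6 were called lower by limma, with 13 at an unadjusted p under 0.05. Their differences ran from -1.18 to -0.10, with a median of -0.70. The mean log2 ratio of the 15 per liver lay between -0.86 and 0.35 in gonadal males and between -0.29 and 1.53 in gonadal females. Of 13 lymphocyte markers 7 were lower in gonadal males and 6 were not called. Differences of the 13 ran from -1.70 to 0.18, with a median of -0.18. Of the 6, Gzma (0.18), Gzmb (0.10), Cd4 (0.10) and Cd79a (0.02) lay above 0. Cd3e (-0.10) and Ms4a1 (-0.08) lay below it. The mean of the 13 per liver lay between -0.42 and -0.17 in gonadal males and between -0.01 and 0.82 in gonadal females. The liver with the highest mean of both marker lists was XYF 12, where Hsd17b2 was at -0.09 and 8 other gonadal females stood higher. Of 12 markers of pericentral hepatocytes 4 were lower in gonadal males, namely Lect2, Rnase4, Rhbg and Slc13a3, and 8 were not called. Of those 8, Cyp1a2 (-0.59), Lgr5 (-0.48), Axin2 (-0.16) and Slc1a2 (-0.11) lay below 0. Glul (-0.02) and Tbx3 (-0.01) lay near 0, and Oat (0.40) and Cyp2e1 (0.10) above it. Of 6 general hepatocyte markers limma called 0 (1 at an unadjusted p under 0.05), with a median difference of -0.01. The means of the pericentral markers lay between -0.27 and 0.10 in gonadal males and between -0.02 and 0.25 in gonadal females. Also lower in gonadal males were 2 of 9 markers of stellate cells and fibroblasts and 1 of 8 of erythroid cells and blood, and 1 of 8 periportal markers (Asl) was higher. Limma called 0 of 7 markers of endothelium, 3 of cholangiocytes, 4 of pancreatic acini, 4 of adipocytes, 5 of adrenal cortex and 5 of gonads, with 1 marker each of endothelium and acini at an unadjusted p under 0.05. The part of these markers in the difference of Hsd17b2 was not tested. In whole liver, fewer cells of a type and less RNA per cell cannot be told apart, and ratios to a liver pool do not show whether a marker is absent.

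The 2 probes of Hsd3b5, the androgen reductase, gave unlike values, and neither was called in any of the 9 comparisons (limma). The probe on a GenBank entry stood at -0.94, 0.27, 0.04, 0.22 and -0.29 in XXM 9, 18, 31, 32 and 38, and at -0.04, -0.10, -0.14, -0.33 and 0.14 in XYM 5, 14, 19, 20 and 27. It stood at 2.00, 0.02, 0.18, 0.29 and 0.06 in XXF 2, 6, 21, 29 and 35, and at -0.51, -0.37, 0.36, -0.04 and -0.01 in XYF 3, 12, 22, 24 and 30. XXF 2 was thus far above every other liver, though below the limit of 2 on the deposited log10 scale, and XXM 9 was the lowest. The probe on a RefSeq entry stayed between -0.13 and 0.16 on all 20 arrays, with an SD of 0.0847 against 0.555 for the other probe. Over the 20 arrays the 2 probes correlated at r = 0.276 (Spearman's rho 0.152), and at -0.0265 over the 19 arrays without XXF 2. The genes of this cluster resemble each other in sequence, and whether either probe reads Hsd3b5 alone was not tested.

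With both probes averaged, Hsd3b5 had means of -0.06 ± 0.25 in XXM, -0.05 ± 0.10 in XYM, 0.29 ± 0.44 in XXF and -0.07 ± 0.14 in XYF (SD, n = 5 each). The groups overlapped. Gonadal males minus gonadal females gave -0.17 ± 0.11 (95% interval -0.41 to 0.07, limma adjusted p = 0.495), and -0.07 without XXF 2. By probe, this difference was -0.32 ± 0.22 for the GenBank entry and -0.02 ± 0.04 for the RefSeq entry, neither past the threshold (limma adjusted p = 0.515 and 0.859). XX minus XY livers gave 0.18 ± 0.11 (95% interval -0.06 to 0.41, limma adjusted p = 0.912), and 0.08 without XXF 2. The interaction was -0.37 ± 0.23 (95% interval -0.84 to 0.11, limma adjusted p = 1), and -0.17 without that liver.

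Within pairs of groups, Hsd3b5 differed by -0.35 between XXM and XXF (limma adjusted p = 0.388) and by 0.36 between XXF and XYF (limma adjusted p = 0.767). Without adjustment, the second pair gave p = 0.0377 by limma and 0.0476 by an exact two-sided permutation test. Without XXF 2 these differences were -0.16 and 0.16. XYM and XYF differed by 0.01 and XXM and XYM by -0.01. From high to low the means ran XXF, XYM, XXM and XYF, and the last 3 differed from each other by less than any of their SDs.

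Hsd11b1, the corticosterone-forming reductase, passed the threshold in none of the 9 comparisons (limma). It stood at 0.13, -0.14, 0.13, -0.08 and -0.04 in XXM 9, 18, 31, 32 and 38. In XYM 5, 14, 19, 20 and 27 it was at 0.25, 0.08, -0.08, 0.24 and 0.19. The XXF livers 2, 6, 21, 29 and 35 held 0.17, 0.36, 0.00, -0.13 and 0.13. All 4 groups overlapped, and the highest of the 20 values was that of XXF 6. In XYF 3, 12, 22, 24 and 30 the values were 0.19, -0.57, -0.01, 0.11 and -0.04, of which XYF 12 was the lowest of all livers. Means were -0.00 ± 0.12 in XXM, 0.13 ± 0.14 in XYM, 0.11 ± 0.18 in XXF and -0.06 ± 0.30 in XYF (SD, n = 5 each).

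Gonadal males minus gonadal females was 0.04 ± 0.08 for Hsd11b1 (95% interval -0.13 to 0.22, limma adjusted p = 0.867), and -0.02 without XYF 12. XX minus XY was 0.02 ± 0.08 (95% interval -0.16 to 0.19, limma adjusted p = 0.981). A difference in either direction larger than these bounds, 0.22 for gonadal type and 0.19 for sex chromosomes, lies outside the 95% intervals. The interaction was -0.30 ± 0.17 (95% interval -0.66 to 0.05, limma adjusted p = 1), made of -0.11 between XXM and XXF and 0.20 between XYM and XYF. Without XYF 12 the interaction was -0.18 and the XYM and XYF difference 0.07. Between XXM and XXF it was -0.04 without XXF 6 and -0.17 without XXF 29.

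**Figure D2:**
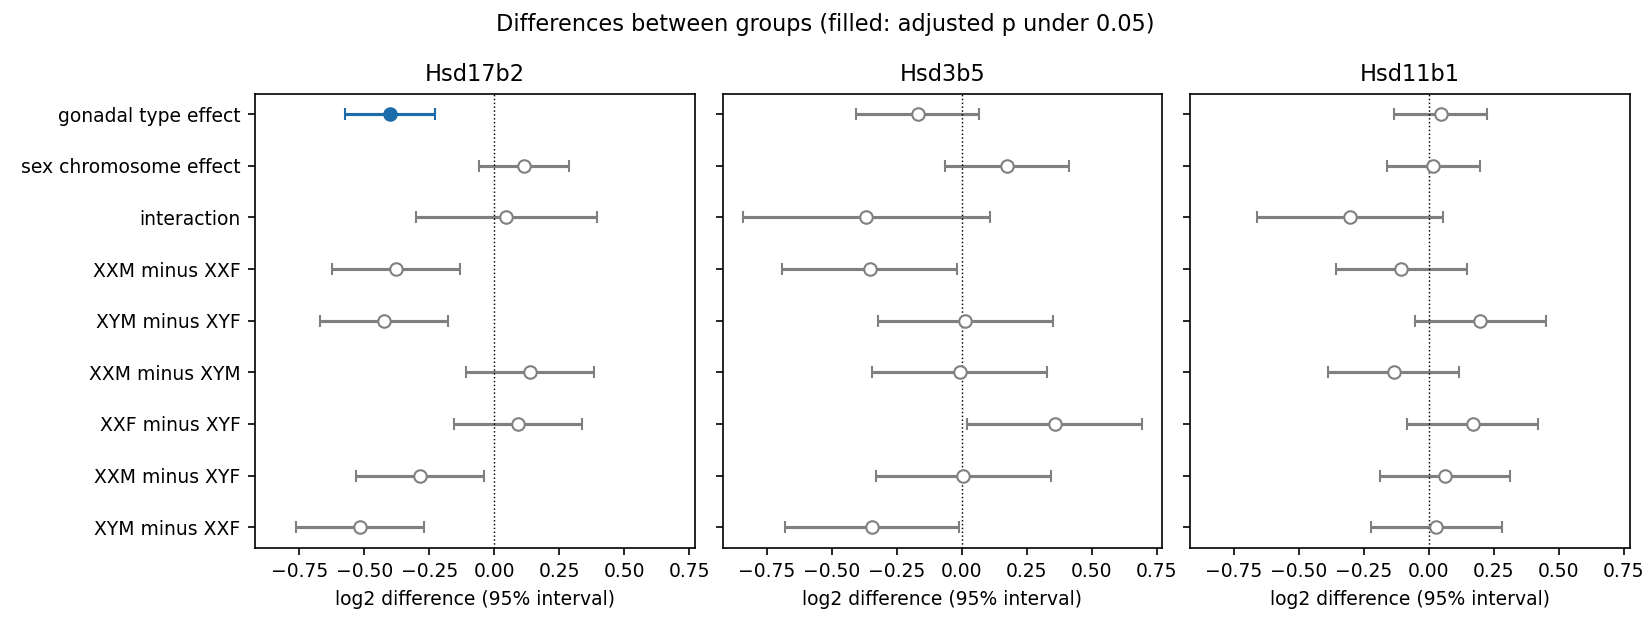
Log2 differences of Hsd17b2, Hsd3b5 and Hsd11b1 in 9 comparisons with 95% intervals from limma; the gonadal type effect is gonadal males minus gonadal females, the sex chromosome effect XX minus XY, and the interaction the gonadal difference in XX minus that in XY. A filled point marks an adjusted p under 0.05, which only Hsd17b2 reached, at -0.40 for gonadal type.

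Among 22 other measured hydroxysteroid dehydrogenases and related enzymes, 0 were higher and 1 was lower in gonadal males by limma, with 5 at an unadjusted p under 0.05. Over all features 3.74% were called, so that 1 of 22 lay near the general share. Without adjustment, 3842 of all 21643 features had p under 0.05 (limma). The median difference of the 22 was 0.02, beside 0.01 over all features. The gene called was Hsd3b2, the neighbour of Hsd3b5. Its log2 ratios were -0.67, -1.50, -0.96, -0.39 and -0.67 in XXM 9, 18, 31, 32 and 38 and -0.40, -0.25, -0.96, -0.71 and -0.47 in XYM 5, 14, 19, 20 and 27. It was at 1.68, 1.50, 0.34, 0.59 and 0.32 in XXF 2, 6, 21, 29 and 35 and at 1.21, -0.49, 0.62, 0.25 and 0.25 in XYF 3, 12, 22, 24 and 30. Of the gonadal females 9 lay above every gonadal male, and XYF 12 lay among the males, as it did for Hsd17b2. Here too the share of all features with so little overlap was not counted.

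Hsd3b2 was 2.51-fold lower in gonadal males (-1.33 ± 0.22, 95% interval -1.78 to -0.88, limma adjusted p = 0.00229). It was called in all 20 fits that left out an animal, between -1.43 and -1.22. Within XX the difference was -1.73 (limma adjusted p = 0.0115) and within XY -0.93 (limma adjusted p = 0.318), and the interaction of -0.80 ± 0.43 did not pass (limma adjusted p = 1). The other genes of the chromosome 3 cluster that were measured gave 0.11 for Hsd3b4, 0.01 for Hsd3b6 and 0.03 for Hsd3b1, none past the threshold. With similar sequences in the cluster, the assignment of the Hsd3b2 signal to that gene alone was not tested either.

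The remaining enzymes stayed short of the threshold. Hsd17b13, a lipid droplet enzyme, came closest at 0.35 ± 0.10 (limma adjusted p = 0.0521), with values between -0.31 and 0.37 in gonadal males and between -0.67 and 0.01 in gonadal females. It was called with quantile normalization (0.34, limma adjusted p = 0.0441), with array weights (0.33, limma adjusted p = 0.0286) and in 3 of the 20 leave-one-out fits, those without XXM 9, XYM 5 or XXF 29. Akr1c6, an aldo-keto reductase of mouse liver that acts on sex steroids, gave -0.65 ± 0.22 (limma adjusted p = 0.107). Hsd3b7, which acts in bile acid synthesis, gave -0.26 ± 0.09 (limma adjusted p = 0.137) and was called at -0.39 without the 4 arrays of wide spread (limma adjusted p = 0.0105), at -0.33 with array weights (limma adjusted p = 0.0136) and at -0.32 without XYF 12 (limma adjusted p = 0.0296). Hsd11b2, which turns corticosterone into its inert form and is best known from kidney, differed by -0.03. For XX minus XY, 0 of the 22 were called by limma and 0 had an unadjusted p under 0.05, with a median of -0.00 beside -0.01 over all features.

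**Figure D3:**
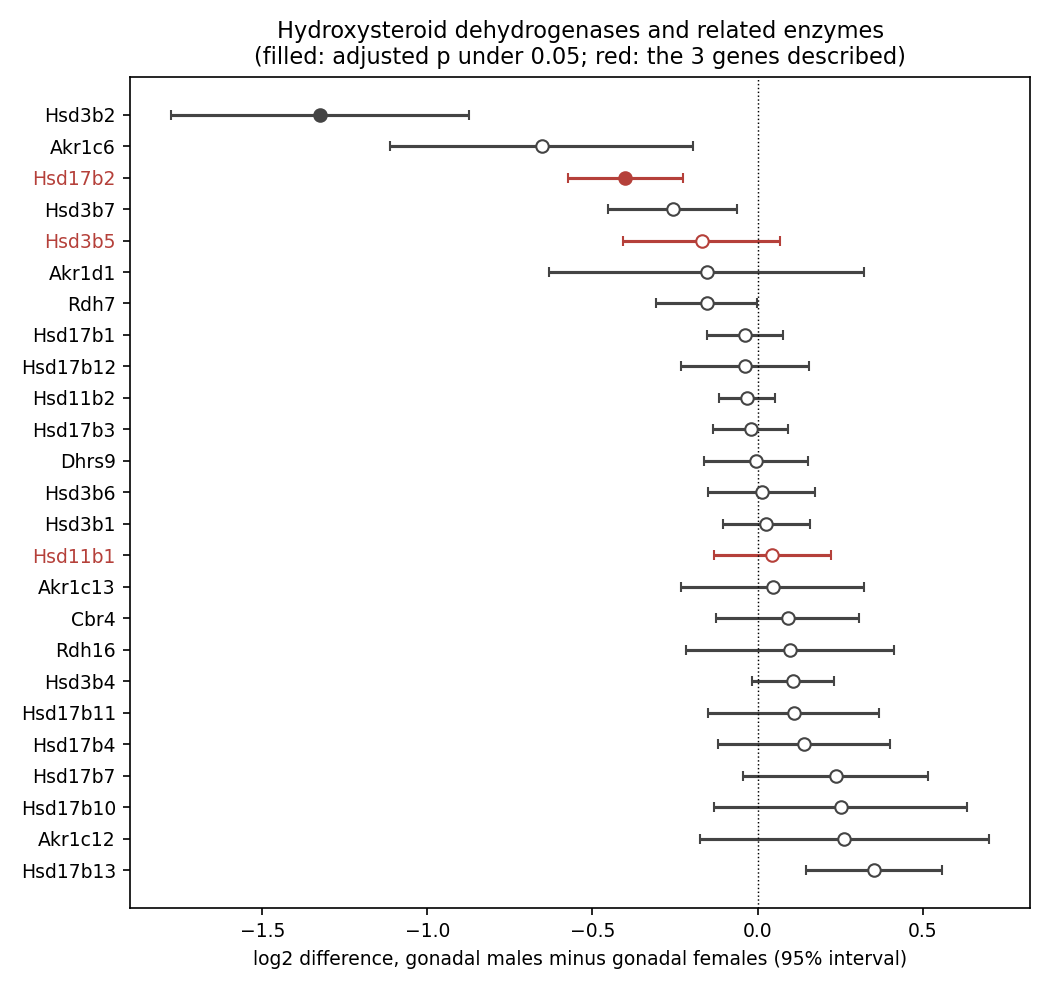
Log2 difference of gonadal males minus gonadal females with 95% intervals from limma for the 3 genes described (red) and 22 other hydroxysteroid dehydrogenases and related enzymes, sorted by size. Filled points have an adjusted p under 0.05, held by Hsd3b2 at -1.33 and Hsd17b2 at -0.40.

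Sulfotransferases conjugate steroids for release, and 3 of the 9 measured sulfotransferase genes were lower in gonadal males. Of 12 measured genes of steroid conjugation and release, limma called 4 lower and 0 higher, beside 3.74% of all features called in either direction. The list's median difference was -0.06. The 4 called were the sulfotransferase genes C730007P19Rik (formerly Sult2a2) at -4.18, Sult2a1 at -3.69 and Sult3a1 at -1.96, and Papss2, which makes the sulfate donor, at -0.32. The call of Papss2 (limma adjusted p = 0.0496) was kept in 5 of the 20 leave-one-out fits. Without the 4 arrays of wide spread Papss2 was at -0.19 (limma adjusted p = 0.262), and 6 other settings also ended its call (limma adjusted p = 0.0502 to 0.073). The other 6 sulfotransferase genes did not pass and lay between -0.37 (Sult1c2) and 0.49 (Sult1e1). Of 7 genes of steroid synthesis and reduction 0 were called, with 1 at an unadjusted p under 0.05 (Stard3, -0.29). Over all 21643 features 3842 had such a p (limma).

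Genes known to work with Hsd11b1 or to answer to its product were read beside the 3.74% of all features called. Counts at an unadjusted p under 0.05 stand beside 3842 of all 21643 features (limma). Of 9 steroid receptors, carriers and genes of NADPH supply, 1 was higher and 0 were lower in gonadal males by limma (5 at an unadjusted p under 0.05). It was Slc37a4, which carries glucose 6-phosphate into the endoplasmic reticulum, at 0.44 ± 0.09 (limma adjusted p = 0.00972). Nr3c1, the glucocorticoid receptor, differed by 0.05, and Serpina6, the corticosteroid carrier of plasma, by -0.68 (limma adjusted p = 0.0739). Of 18 genes known to be induced by glucocorticoids, 2 were higher and 0 lower, beside a list median of 0.04. Fkbp5, a chaperone of steroid receptors, was higher by 1.21 ± 0.23 (limma adjusted p = 0.00603). Got1, an aminotransferase, was higher by 0.68 (limma adjusted p = 0.0387) and kept its call in 5 of the 20 leave-one-out fits. Without the 4 arrays of wide spread Got1 was at 0.44 and not called (limma adjusted p = 0.129).

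Genes known for sex bias in intact mouse liver are given beside the same 3.74% of all features. For an unadjusted p under 0.05 the general count is again 3842 of 21643 features (limma). Of 14 male-biased genes limma called 1 higher, Cyp2d9 at 1.83, and 0 lower (list median 0.00). Of 28 female-biased genes 2 were higher, Fmo2 at 1.03 and Cux2 at 0.72, and 6 were lower, 3 of which are the sulfotransferase genes above. The others were A1bg at -2.44, Cyp2b13 at -0.46 and Hao2 at -1.47. Of 17 genes of the growth hormone axis only Cux2 was called by limma, and of 15 bile acid genes 0 were, with 8 at an unadjusted p under 0.05. For XX minus XY, limma called 0 genes of any of these lists, with 0 to 2 per list at an unadjusted p under 0.05. In that comparison 1099 of all 21643 features had such a p (limma).

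The patterns of the 3 dehydrogenases over the 20 arrays differed from each other. Hsd17b2 and Hsd3b5 correlated at r = 0.474 (rho 0.286) and at 0.201 without XYF 30 and XXF 2. Hsd17b2 and Hsd11b1 correlated at 0.0749, and Hsd3b5 and Hsd11b1 at 0.0686. These and the next correlations describe arrays that share the pool and the group differences, and carry no test.

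The 5 named genes whose ratios followed Hsd17b2 most closely were Fhit (r = 0.871), Adh1 (0.845), Sema4g (0.843), Ccnk (0.842) and Cyp2g1 (0.841). Fhit hydrolyses dinucleoside polyphosphates and Adh1 is the main alcohol dehydrogenase of liver. Without XYF 30 and XXF 2, the livers farthest from the median of Hsd17b2, r was 0.794 to 0.819. After each group's mean was taken off, r was 0.633 to 0.8. Because the 5 genes were picked by r over the same arrays, a gonadal difference in the direction of Hsd17b2 is largely built in. Such a difference adds no support to that of Hsd17b2. Between gonadal types Fhit differed by -0.46 ± 0.09, Adh1 by -0.76 ± 0.14, Sema4g by -0.27 ± 0.06 and Ccnk by -0.66 ± 0.13 (limma adjusted p = 0.0089, 0.00609, 0.0228 and 0.00914), while Cyp2g1 at -0.19 was not called (limma adjusted p = 0.11). Cyp2g1 was called with quantile normalization and with scaled arrays (limma adjusted p = 0.0433 and 0.0332). Without XYM 19 Sema4g was not called (limma adjusted p = 0.0531).

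**Figure D4:**
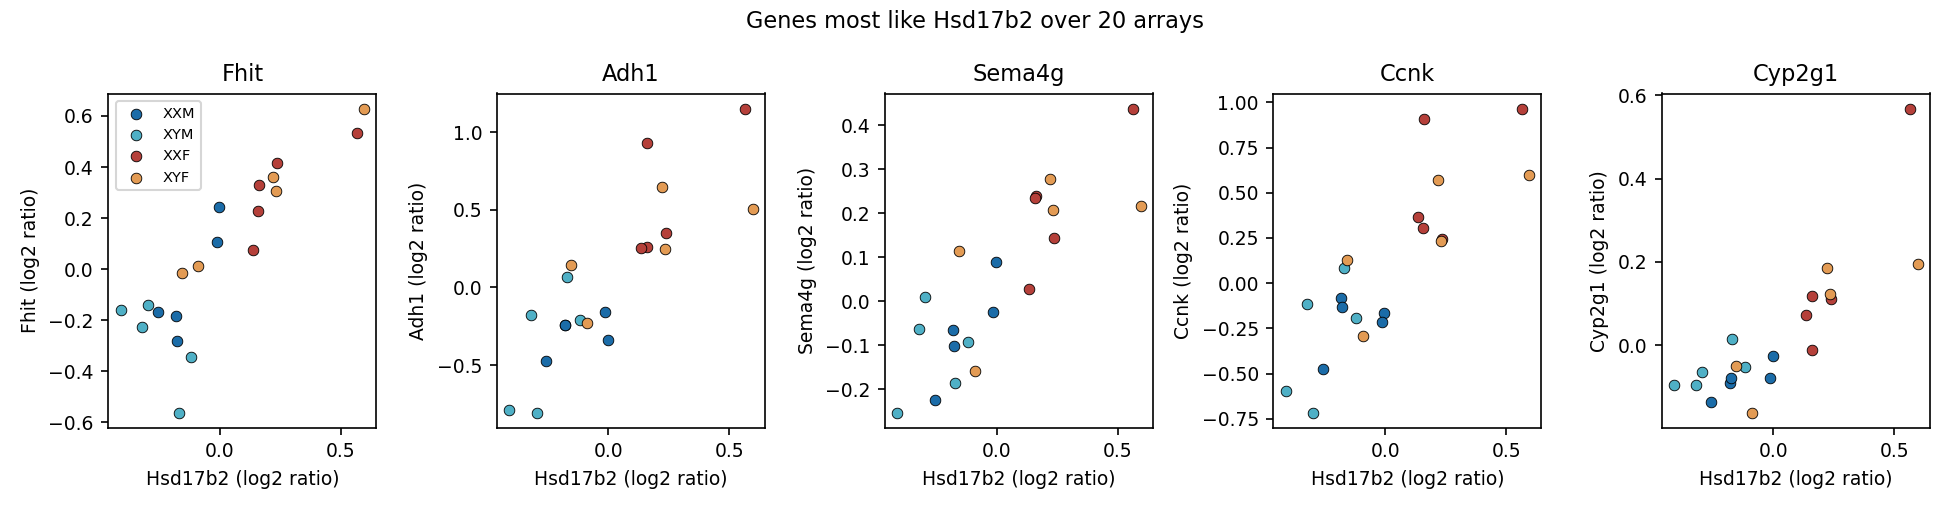
Log2 ratio of liver over pool for the 5 genes most like Hsd17b2 (y axes) against Hsd17b2 (x axis), with 1 point per array coloured by group. Most gonadal females lie at the upper right of each panel, and r over 20 arrays runs from 0.841 to 0.871.

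For Hsd3b5 the nearest genes were Afp (r = 0.809), Spink4 (0.773), Rassf8 (0.717), Cyp2g1 (0.717) and Slc25a23 (0.695). Without XXF 2 and XXM 9 these were 0.345, 0.115, 0.503, 0.111 and 0.021, so the likeness rested largely on those livers. For Hsd11b1 they were Fn3k (0.742), Ppp2r5e (0.733), Smoc1 (0.731), Sparcl1 (0.715) and Gsta2 (0.709). Without XYF 12 and XXF 6 r was 0.715 for Ppp2r5e and 0.543 for Gsta2, and it fell to between -0.0588 and 0.4 for the other 3.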

How the data were processed

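Liver RNA of each of 20 mice was measured on its own 2-colour array. Per the labels' protocols, RNA came from RNeasy columns with DNase and was labelled by an automated form of the aminoallyl MessageAmp II kit, with liver in Cy5 and pool in Cy3. The deposited values are log10 ratios of liver over pool, limited at a size of 2 (29 values); base and direction were read from the values, since no label gives them. In base 10 the Y-linked Eif2s3y stood at 1.74 ± 0.331 times the pool in 9 XY livers (SD), and in base 2 at 1.18. Another base would scale every log2 difference and leave p-values as they are. The labels describe the pool as 17 chow-fed mice and the design text as equal shares of every sample; it cancels between groups. Scanner, background correction and dye normalization are not given in the sources used here, and the values carry no signal over background, so that precision is limited by the number of arrays.

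Values were converted to log2 and probes named through Entrez IDs (12662 probes), accessions (4) or the platform's own symbols (999). Another 48 named several genes and 9861 were not listed. Probes of the same gene were averaged, which gave 21643 features (11734 named genes). limma 3.58.1 in R 4.3.3 fitted 4 group means with a shared spread, eBayes and Benjamini-Hochberg adjustment over all features (threshold 0.05). No value was filtered. The fit was also run on simulated data with independent noise. Such data do not show how it calls genes on arrays that correlate and differ in spread as these do. Exact permutation tests ran on 3 genes in 6 comparisons each, and their p-values are not adjusted. Animals were separate, as their numbers all differ.

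The genes, gene lists and marker lists were chosen with earlier results of these data known. Named are the members, the 5 genes most correlated with each, up to 4 genes per list by p, all other measured dehydrogenases, and Eif2s3y and Kdm5d. Fmo2, Cyp2b13, Hao2, Nr3c1, Sult1c2 and Sult1e1, beyond 4 per list, were named after their values were seen. So were the 8 pericentral and 6 lymphocyte markers that were not called. Alternatives left out animals or arrays, changed normalization, weights or the prior, and took probes singly. Promoter sequences are RefSeq's (GRCm38.p6); Hsd3b5, Hsd3b2 and Hsd11b1 were matched.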

Additional observations from a re-analysis of the deposited data

Results flagged for a closer look

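In 108 groups of 5 arrays, covering the 3 genes, the 2 probes of Hsd3b5 and the 22 other dehydrogenases and related enzymes, 6 values stood apart from their group by Dixon's ratio of gap to range (above 0.71). Chance gives about 1 in 20. XXF 2 accounted for 3 of them. Its Hsd17b2 ratio was 0.565, against 0.135 to 0.237 in the other XXF livers. Hsd3b5 stood at 1.07 there, against 0.0237 to 0.199, and its probe on a GenBank entry at 2.00, against 0.0178 to 0.29. XXF 2 is also one of the 4 arrays of wide spread; what part that has was not tested. Without it the gonadal difference of Hsd17b2 was -0.36 (limma adjusted p = 0.0225) and that of Hsd3b5 -0.07 (limma adjusted p = 0.729).

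Akr1c6 was at 0.226 in XXM 9, against -0.717 to -0.573 in the other XXM livers. Hsd3b4 was at 0.267 in XXM 32, against -0.000187 to 0.0683 in the other XXM livers. Akr1c12, another aldo-keto reductase, was at -0.595 in XYM 20, against 0.219 to 0.519 in the other XYM livers.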

How the results depend on the processing

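No paired analysis was possible because the animal numbers all differ and the labels pair no groups. The calls of Hsd17b2 (-0.40) and Hsd3b2 (-1.33) between gonadal types held under every alternative run, and Hsd17b2 lay between -0.44 and -0.35 in fits that left out an animal. Of 1677 alternative values, 1503 kept their direction and side of the threshold. Another 39 lost a call, 17 came under the threshold, 84 moved and 34 changed sign, none of them a called value. The 17 include exact permutation tests whose unadjusted p was set against the threshold for adjusted p, which gains no call. These were Hsd17b2 in XXM minus XXF (permutation p = 0.00794) and XYM minus XYF (0.0159), and Hsd3b5 in XXF minus XYF (0.0476). The fit without the library labelled XYF 30 was counted both as its own setting and among fits that left out an animal. Reading the values as log2 gives -0.12 for Hsd17b2 with the same adjusted p (0.0119, limma).

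Counts of features called changed most. For gonadal type, 809 became 1706 with array weights and 393 (without XYM 19) to 1129 (without the library labelled XYF 30) in fits that left out an animal. For sex chromosomes, 6 became 13 without that library, 0 without the 4 arrays of wide spread, 10 with arrays scaled to a common median absolute deviation, 12 with array weights, and 2 to 13 leaving out an animal. The interaction stayed at 0. For XXM minus XXF, 144 became 274 without the wide arrays, 406 with quantile normalization, 300 with scaling, 568 with weights and 36 to 461 leaving out an animal. For XYM minus XYF, 34 became 52, 55 (quantile) and 60 (weights), and 11 to 51. For XXM minus XYM, 1 became 8 without XYF 30, 2 without the wide arrays, 2 (quantile), 3 (scaling), 7 (weights) and 0 to 8. For XXF minus XYF, 0 became 8 without XYF 30 (0 to 8). For XXM minus XYF, 66 became 137 without XYF 30 (13 to 137). For XYM minus XXF, 133 became 223 without the wide arrays (51 to 348). The causes were not tested.

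Values near 0, none called, changed sign. Hsd11b1 for XX minus XY was -0.078 without the wide arrays, -0.013 (quantile), -0.0026 (scaling), -0.024 (weights) and -0.047 to 0.049 leaving out an animal. Leaving out an animal gave -0.019 to 0.077 for its gonadal difference, -0.065 to 0.13 for XXM minus XYF (-0.023 without the wide arrays) and -0.030 to 0.092 for XYM minus XXF, and XXF minus XYF was -0.021 without the wide arrays. The interaction of Hsd17b2 was -0.062 without XYF 30 (-0.062 to 0.13), and its XXF minus XYF -0.047 without the wide arrays. Hsd3b5 for XYM minus XYF was -0.072 (wide arrays left out), -0.026 (quantile), -0.021 (scaling), -0.030 (weights) and -0.027 to 0.068. Its XXM minus XYM was 0.028 on the RefSeq probe alone (-0.056 to 0.085) and its XXM minus XYF -0.080 without the wide arrays (-0.042 to 0.099). In an alternative chosen after seeing the data, Sparcl1 correlated with Hsd11b1 at -0.11 without the wide arrays.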
